A study of Homo sapiens with 34 samples.

Results

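The genes described here are 39 genes of mitosis and proliferation, taken by name from a table of 31975 genes in 34 established human B-cell lymphoma cell lines. All 39 names were found, and all 39 passed the low-value filter that kept 22167 genes. The groups were 11 lines of mantle cell lymphoma (MCL), 3 of Burkitt lymphoma (BL), and 2 kinds of diffuse large B-cell lymphoma (DLBCL), with 6 lines of activated B-cell type (ABC DLBCL) and 14 of germinal centre type (GCB DLBCL). No line carried an engineered allele or a treatment according to the labels, and each line was measured as 1 RNA-seq library. Each line is counted under the pathology its label gives, and is grown without the other cells of a tumour. The labels marked 30 lines as re-analysed and left Daudi, HBL-2, MAVER-1 and UPN1 unmarked. Values are variance-stabilised log2 read counts as deposited, on which 0 reads read 4.55, and all differences are in the same log2 units.

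Cells that divide build a set of proteins in G2 and mitosis and destroy many of them when mitosis ends, so that the messages of these genes rise and fall with the cell cycle. The transcription factors FOXM1 and MYBL2 act on their promoters, the second together with the MuvB complex, which also binds the cell cycle genes homology region (CHR). CDK1 with cyclin B drives entry into mitosis, the Aurora and Polo kinases build the spindle, the kinetochore ties chromosomes to it, and the anaphase-promoting complex ends mitosis by marking securin and the cyclins for destruction. The Ki-67 protein, the product of MKI67, is stained in lymphoma sections as a measure of the share of cycling cells, and mantle cell lymphoma is graded in part by it. In bulk RNA a smaller share of cells in mitosis and less RNA per such cell cannot be told apart.

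The libraries fell into 2 classes that are given apart throughout. In 9 lines ZNF593 had 0 reads, and these were 8 of the 14 GCB DLBCL lines (DB, DOHH-2, Karpas422, NU-DHL-1, OCI-Ly1, OCI-Ly7, SU-DHL-6 and WSU-DLCL2) and the ABC DLBCL line NU-DUL-1. They are called the second class, and the 25 other lines (11 MCL, 3 BL, 5 ABC DLBCL and 6 GCB DLBCL) the first class. The recovered depth was 2.55 to 22.7 M reads in the second class and 22.6 to 165 M in the first. The lowest count of a mitosis gene in any line was 26 reads, at a value of 8.65. The 6 B-cell marker genes summed to between 1164 and 7511 reads per 1 M reads in the 34 lines. The T-cell markers CD3D and CD2 had 0 reads in 17 and 24 lines, and the erythroid HBB in 28. The summed T-cell markers reached at most 171 reads per 1 M and the stromal ones 467, both in GCB DLBCL lines, and the endothelial ones 127 in MCL. Their part in the results below was not tested.

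The start regions of 7 of the genes are shown. MKI67, ASPM, CENPA, CCNB2 and PLK1 were called in a comparison below, CDCA8 shares a run of motif letters with MKI67, and MYBL2 held neither motif. They are 140 bases upstream of the RefSeq start in build GRCh38.p14, written 5′ to 3′ on the strand of the gene, with matches to the CHR (TTTGAA or TTCGAA) and to the CCAAT box in capitals on either strand. ASPM lies at chr1:197146670-197146809 on the minus strand, CCNB2 at chr15:59105006-59105145, CDCA8 at chr1:37692376-37692515, CENPA at chr2:26785916-26786055, MKI67 at chr10:128126424-128126563 on the minus strand, MYBL2 at chr20:43666974-43667113 and PLK1 at chr16:23678749-23678888.
MKI67: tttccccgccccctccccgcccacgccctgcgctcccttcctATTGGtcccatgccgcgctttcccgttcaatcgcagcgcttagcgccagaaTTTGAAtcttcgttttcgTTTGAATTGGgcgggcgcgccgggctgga
ASPM: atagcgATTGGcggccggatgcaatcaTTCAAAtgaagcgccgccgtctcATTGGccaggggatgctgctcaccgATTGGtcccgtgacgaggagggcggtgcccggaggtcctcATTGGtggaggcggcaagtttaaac
CENPA: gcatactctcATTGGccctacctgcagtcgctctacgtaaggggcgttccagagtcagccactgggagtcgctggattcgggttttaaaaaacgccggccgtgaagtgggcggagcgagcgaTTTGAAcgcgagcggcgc
CCNB2: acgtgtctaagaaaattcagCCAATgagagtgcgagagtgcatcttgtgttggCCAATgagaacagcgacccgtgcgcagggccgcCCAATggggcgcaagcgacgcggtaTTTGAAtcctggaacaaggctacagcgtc
PLK1: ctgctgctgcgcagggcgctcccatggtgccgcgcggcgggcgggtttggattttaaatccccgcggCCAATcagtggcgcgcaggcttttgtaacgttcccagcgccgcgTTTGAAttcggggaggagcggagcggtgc
CDCA8: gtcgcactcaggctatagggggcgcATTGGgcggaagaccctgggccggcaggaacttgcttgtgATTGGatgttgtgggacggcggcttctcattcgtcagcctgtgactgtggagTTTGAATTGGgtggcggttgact
MYBL2: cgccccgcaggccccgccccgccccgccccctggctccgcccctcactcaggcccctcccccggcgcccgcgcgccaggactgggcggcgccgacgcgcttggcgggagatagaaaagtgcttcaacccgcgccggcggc
CCNB2, PLK1 and MKI67 held TTTGAA at the same distance, -29 to -24 from the start. CDCA8 and MKI67 held the run TTTGAATTGG, in which the CHR and a reverse CCAAT box share 1 base. MKI67 held another TTTGAA at -47 to -42, and ASPM held its match on the other strand at -113 to -108 among 4 reverse CCAAT boxes. Over the 250 bases before the start, 17 of the 32 genes with a RefSeq window held a CHR (53.1%). Among all 27305 genes of the RefSeq promoter set, measured here or not, 17.2% did. A gene was counted when any of its windows held the motif. A CCAAT box was found in 25 of the 32 genes (78.1%), against 37.0% of all, and both motifs in 15 (46.9%), against 6.24%. For 5 genes neither was found (15.6%, against 62.0% of all), namely MYBL2, KIF2C, CENPE, NUF2 and NDC80. This says only that these letters are not in their windows. FOXM1, AURKA, TTK, UBE2C, BIRC5, TPX2 and RACGAP1 were not matched to a window.

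The mean of the 39 genes differed little between the lymphomas. It was 12.18 ± 0.26 in MCL (SD, n = 11), 12.10 ± 0.08 in BL (n = 3), 11.94 ± 0.46 in ABC DLBCL (n = 6) and 12.07 ± 0.37 in GCB DLBCL (n = 14). The MCL lines ran from 11.62 in SP-53 through a median of 12.23 to 12.50 in UPN1. The BL lines Daudi, Raji and Ramos lay at 12.17, 12.12 and 12.01, within 0.2 log2 units of each other. The ABC DLBCL lines reached from 11.31 in HBL-1 to 12.42 in SU-DHL-8, and the GCB DLBCL lines from 11.52 in DOHH-2 to 12.56 in SU-DHL-5. All 4 groups overlapped, and each difference between their means was smaller than the pooled SD over lines. The sign of the smallest ones was not stable, since MCL minus BL was 0.08 as deposited and -0.34 with each library centred on its median. In the 25 first-class lines alone the mean was 11.86 ± 0.46 in ABC DLBCL (n = 5) and 12.29 ± 0.34 in GCB DLBCL (n = 6). That difference of -0.43 was slightly larger than its pooled SD of 0.40, and the ranges still overlapped. Within GCB DLBCL the mean was 11.91 ± 0.33 in the 8 second-class lines and 12.29 ± 0.34 in the 6 first-class lines.

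**Figure D1:**
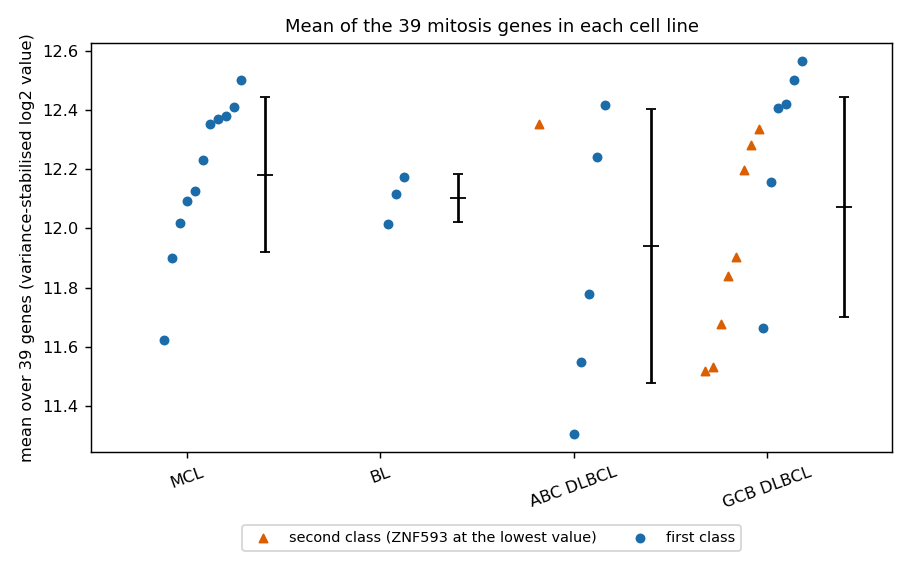
Mean of the 39 genes in each cell line (vertical axis, variance-stabilised log2 value) by lymphoma type (horizontal axis); triangles are second-class and circles first-class libraries, and bars give the mean ± SD over lines. The ranges of the 4 types overlap, and the lowest line is the ABC DLBCL line HBL-1 at 11.31.

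As a share of all recovered reads, the 39 genes took between 0.320% in JVM2 and 0.998% in NU-DUL-1. The group means of this share were 0.650% ± 0.193 in MCL, 0.594% ± 0.150 in BL, 0.577% ± 0.254 in ABC DLBCL and 0.679% ± 0.166 in GCB DLBCL (SD, n as above). The line highest in the share was thus a second-class line, and JVM2 was lowest in it although its log2 mean of 11.90 lay inside the MCL range. Against the median of all kept genes in the same library, the mean of the 39 genes stood 5.13 ± 0.40 above it in MCL, 5.48 ± 0.17 in BL, 5.11 ± 0.68 in ABC DLBCL and 5.17 ± 0.64 in GCB DLBCL. The library medians themselves averaged 7.05 in MCL, 6.63 in BL, 6.83 in ABC DLBCL and 6.90 in GCB DLBCL.

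Single genes were tested with limma, with Benjamini-Hochberg adjusted p-values over every gene kept and a threshold of 0.05. In the 25 first-class lines, 0 of the 39 genes passed in any of 7 comparisons. For MCL against the other types, 4.86% of all genes passed, and at an unadjusted p under 0.05 there were 2 of the 39 (5.13%) beside 19.6% of all genes. The shares of all genes called were 2.18% for MCL against BL, 0.814% against ABC DLBCL and 3.41% against GCB DLBCL. At the unadjusted level these comparisons had 2, 7 and 2 of the 39 (5.13%, 17.9% and 5.13%) beside 15.7%, 14.1% and 17.8% of all genes. The shares called were 0.656% for BL against ABC DLBCL, 0.157% for BL against GCB DLBCL and 0.315% for ABC DLBCL against GCB DLBCL. There 3, 4 and 8 of the 39 had an unadjusted p under 0.05 (7.69%, 10.3% and 20.5%), beside 13.1%, 8.45% and 10.9% of all genes. The median interval of a gene's MCL minus GCB DLBCL difference reached 0.60 log2 units to each side. In the 34 lines, 0 of the 39 passed for MCL against the other types (4.46% of all genes), BL (1.17%) or ABC DLBCL (0.69%), nor for BL against ABC DLBCL (0.117%), BL against GCB DLBCL (0.153%) or ABC DLBCL against GCB DLBCL (0.726%). In that order 3, 1, 4, 2, 6 and 1 of the 39 had an unadjusted p under 0.05, beside 17.6%, 11.4%, 10.6%, 8.61%, 15.0% and 17.3% of all genes. The exception was MCL against GCB DLBCL, with 3 of 39 genes called (7.69%) against 23.7% of all genes. Of all genes 2436 were called higher and 2809 lower there, and 1473 and 4429 after centring on library medians.

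The 3 genes were CENPA, ASPM and MKI67, and all 3 calls were confined to the fit that held the second-class lines. CENPA, the histone H3 variant that marks the centromere, lay at 9.9996, 10.44 and 11.51 in MCL (lowest, median, highest) and at 8.65, 9.92 and 10.65 in GCB DLBCL. The upper 5 MCL lines exceeded every GCB DLBCL line, and the others overlapped them. CENPA was 0.97 ± 0.23 higher in MCL (limma difference ± SE, adjusted p = 0.0044). Among the 6 first-class GCB DLBCL lines it ran from 9.01 in HT to 10.65 in Toledo, and the difference was 0.55 with a 95% interval of 0.01 to 1.09 (limma adjusted p = 0.27). Against the mean of the 3 other types over 34 lines the difference of CENPA was 0.66 (95% interval 0.20 to 1.11, limma adjusted p = 0.086).

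ASPM, a spindle pole protein named for abnormal spindles, lay at 9.98, 11.70 and 12.89 in MCL and at 11.45, 12.49 and 13.34 in GCB DLBCL. The ranges overlapped between 11.45 and 12.89, with JVM2 lowest in MCL and DB highest in GCB DLBCL. ASPM was lower in MCL by the limma difference of -0.96 ± 0.29 (adjusted p = 0.017), and the first-class lines gave -0.69 with a 95% interval of -1.48 to 0.09 (limma adjusted p = 0.35). MKI67 lay at 11.57, 13.87 and 14.67 in MCL and at 13.27, 14.46 and 15.51 in GCB DLBCL. Here 5 of the 6 first-class GCB DLBCL lines sat within 14.33 to 14.68, and the highest GCB DLBCL value belonged to the second-class line SU-DHL-6. MKI67 was lower in MCL, with a limma difference of -0.82 ± 0.31 (adjusted p = 0.048), and the first-class lines gave -0.58 with a 95% interval of -1.36 to 0.19 (limma adjusted p = 0.45). Of the 39 differences between MCL and GCB DLBCL, 27 were above 0 with all lines (1 called higher, against 11% of all genes, and 2 called lower, against 12.7%), and 15 with the first-class lines. The median over the 39 genes was 0.23 and -0.11 in these fits, beside -0.02 and 0.04 over all genes tested. By role, in the first-class lines, the differences were above 0 for 1 of 4 cyclins and CDK1, 4 of 7 mitotic kinases, 5 of 10 spindle genes, 3 of 5 kinetochore genes and 0 of 4 genes of anaphase proteolysis, none of them called.

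**Figure D2:**
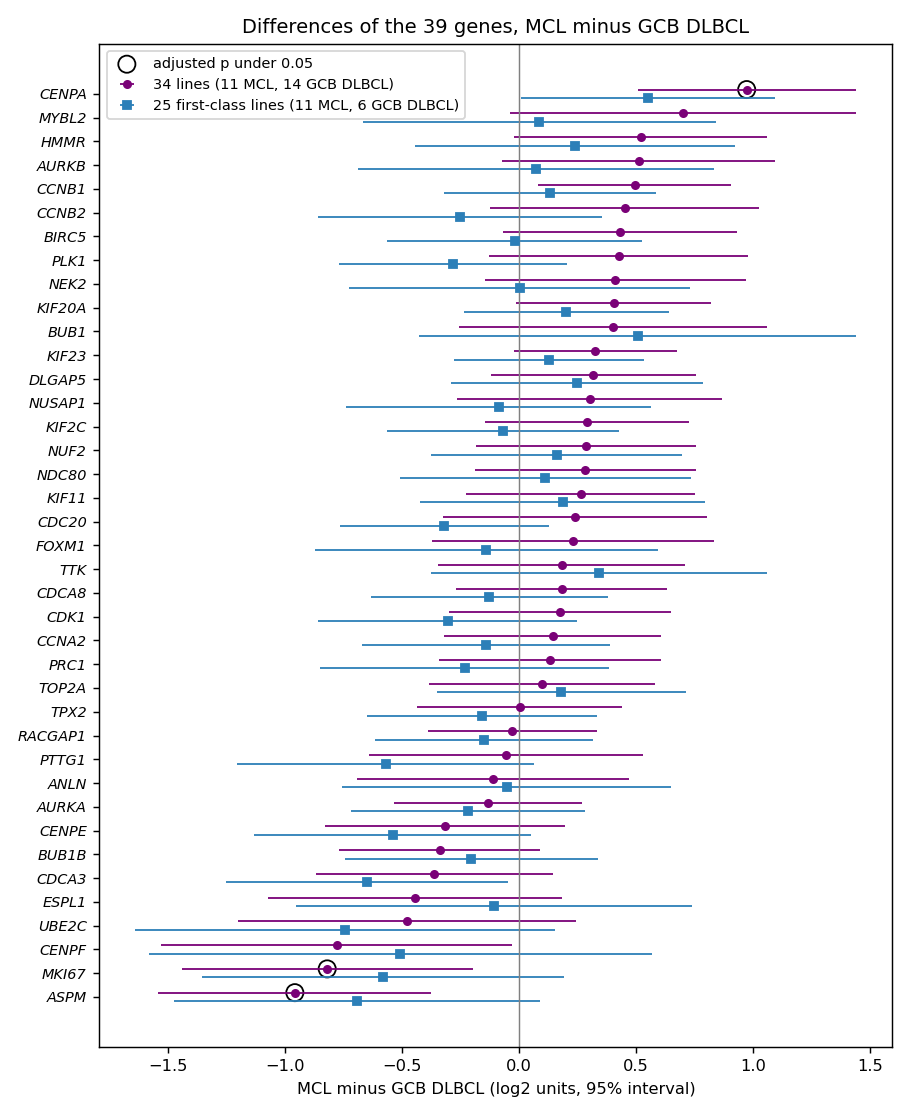
Difference of each of the 39 genes between MCL and GCB DLBCL (horizontal axis, log2 units, with the 95% interval) in the fit of 34 lines (circles) and in the 25 first-class lines (squares); open rings mark an adjusted p under 0.05. The rings are on CENPA, MKI67 and ASPM in the fit of 34 lines, and no square carries one.

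**Figure D3:**
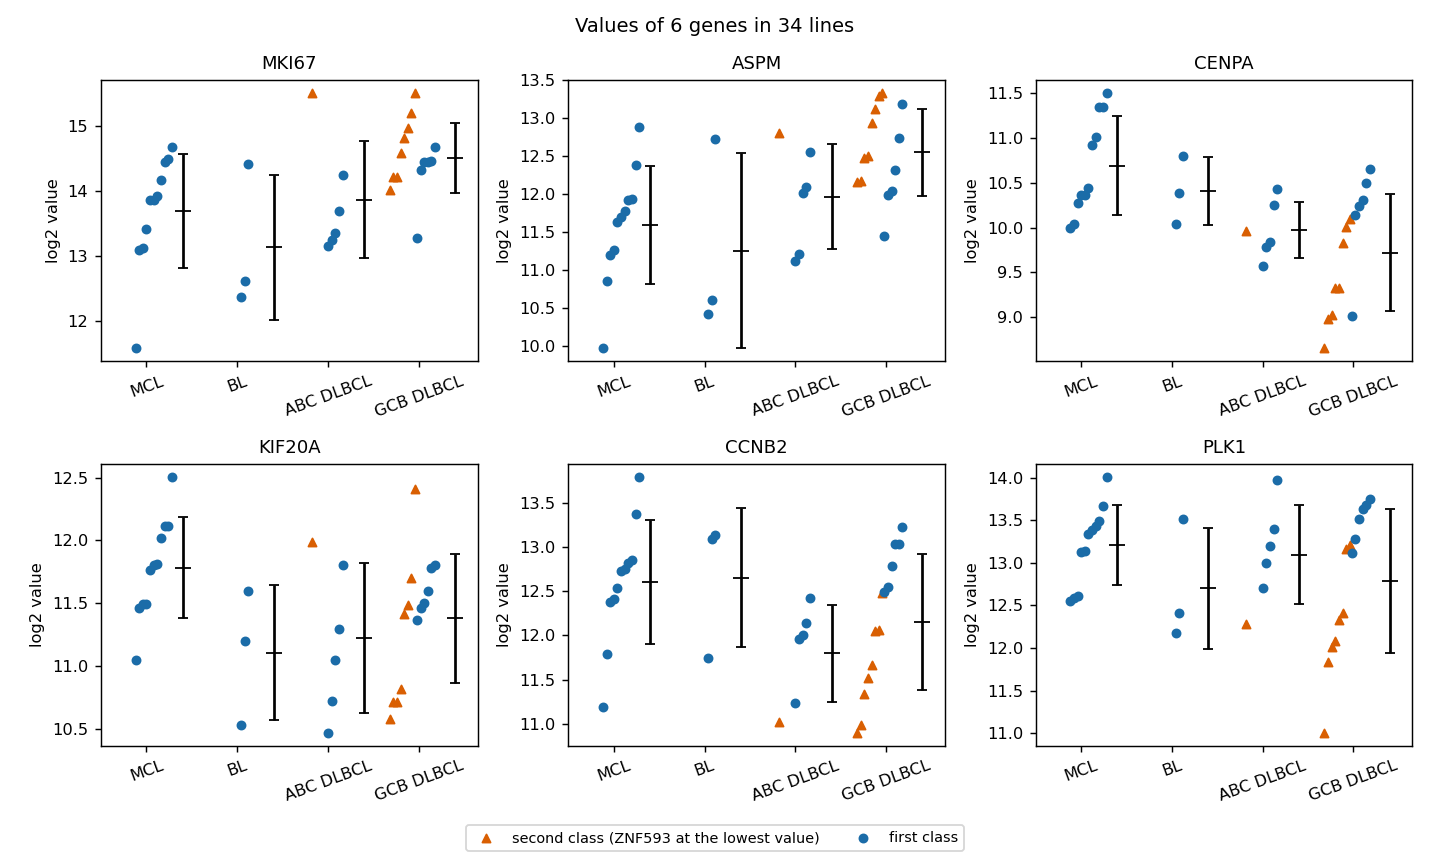
Values of 6 genes (vertical axes, variance-stabilised log2 value) in each line by lymphoma type; triangles are second-class and circles first-class libraries, and bars give the mean ± SD over lines. CCNB2 and PLK1 lie lowest in second-class GCB DLBCL lines, MKI67 reaches its highest values in second-class lines, and JVM2 is the lowest MCL line for MKI67 and ASPM.

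The split of the GCB DLBCL lines by library class was tested in its own fit. Second-class lines differed from first-class lines in 2 of the 39 genes (5.13%), both lower (17.1% of all genes were called, 10% higher and 7.06% lower). CCNB2, a B-type cyclin, lay at 10.90, 11.59 and 12.48 in the 8 second-class lines (lowest, median, highest). In the 6 first-class lines it lay at 12.49, 12.91 and 13.23. Among the 39 genes only CCNB2 had classes that did not overlap, and only narrowly, with OCI-Ly1 at 12.479 and Toledo at 12.494. The share of all genes without overlap was not counted, so this is not read as a result about CCNB2. The limma difference of CCNB2 was -1.23 ± 0.25 (adjusted p = 0.0035). PLK1, the Polo kinase of mitotic entry and spindle building, lay at 11.004, 12.21 and 13.21 in the second class and at 13.12, 13.57 and 13.75 in the first (-1.24 ± 0.30, limma adjusted p = 0.0095). OCI-Ly1 was the second-class line nearest to the first class in both genes.

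The other genes did not share 1 direction within this split. ASPM averaged 12.75 ± 0.48 in the second class and 12.29 ± 0.61 in the first, CENPF 13.45 ± 0.25 and 12.97 ± 0.90, and MKI67 14.69 ± 0.53 and 14.27 ± 0.50 (SD, n = 8 and n = 6). CENPA averaged 9.40 ± 0.52 in the second class and 10.14 ± 0.58 in the first, CDK1 11.63 ± 0.33 and 12.47 ± 0.74, and MYBL2 13.47 ± 1.14 and 14.54 ± 0.35. Only 9 of the 39 differences were above 0, among them those of ASPM, CENPF, MKI67, ESPL1 and BUB1B, and the median over the 39 genes was -0.46 beside 0.12 over all genes tested. Of the 3 genes called between MCL and GCB DLBCL, CENPA had the lower mean, and ASPM and MKI67 the higher mean, in the second class, so that each difference from MCL was wider with these lines included. CDK1 (-0.84, limma adjusted p = 0.054) and the microtubule bundler PRC1 (-0.64, adjusted p = 0.062) were next in order of p. How much depth, line or library preparation contributed cannot be told apart.

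FOXM1 and MYBL2 varied together only in part. FOXM1, the forkhead factor of G2 genes, averaged 12.52 ± 0.79 in MCL, 12.92 ± 0.33 in BL, 12.18 ± 0.73 in ABC DLBCL and 12.29 ± 0.79 in GCB DLBCL. Its lowest line was JVM2 at 10.70 and its highest SU-DHL-8 at 13.47. MYBL2, which works with the MuvB complex at cell cycle promoters, averaged 14.62 ± 1.002, 14.43 ± 0.58, 14.67 ± 0.58 and 13.93 ± 1.03 in MCL, BL, ABC DLBCL and GCB DLBCL. It too was lowest in JVM2 (12.09) and was highest in REC-1 (16.29), both MCL lines, while the ABC DLBCL lines other than NU-DUL-1 stayed between 14.48 and 15.14. Their Pearson r was 0.61 over 34 lines and 0.38 over 25. Without the 2 lines farthest from the MYBL2 median it was 0.48 and 0.06. Leaving these lines out also narrows the range of MYBL2.

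Among the cyclins and CDK1, no pathology difference passed. CCNB1 (cyclin B1) averaged 12.84 ± 0.42 in MCL, 12.25 ± 0.07 in BL, 12.50 ± 0.54 in ABC DLBCL and 12.35 ± 0.56 in GCB DLBCL. The 3 BL lines lay at 12.31, 12.17 and 12.27, inside the range of every other group. CDK1 lay between 11.46 and 13.42 in MCL, between 12.52 and 12.67 in BL, between 11.53 and 12.90 in ABC DLBCL and between 10.98 and 13.67 in GCB DLBCL. HT was the line with 13.67, and it was 1.56 above the CDK1 mean over all lines. CCNB2 in HBL-2 was 11.19, the lowest MCL value, and in Jeko-1 13.79, the highest of all lines.

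Of the mitotic kinases, AURKA, which matures the centrosomes, lay at 10.89, 11.56 and 11.98 in MCL (lowest, median, highest). In BL it lay at 10.89, 10.94 and 10.85. It ran from 10.24 to 12.29 in ABC DLBCL and from 10.68 to 12.21 in GCB DLBCL, so that the 3 BL lines lay at the low end of or just below the MCL range and inside the ranges of both DLBCL types. PLK1 in the first-class lines averaged 13.21 ± 0.47 in MCL, 12.70 ± 0.71 in BL, 13.26 ± 0.48 in ABC DLBCL and 13.50 ± 0.25 in GCB DLBCL. BUB1, a spindle checkpoint kinase, reached 14.70 in UPN1 and 14.72 in Z-138 and was 11.13 in MD903, its lowest line. These 2 MCL lines stood 2.08 and 2.10 above the mean of BUB1 over all lines, while SP-53, also MCL, had 11.33.

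Among the genes that act at anaphase, PTTG1 had the widest difference of the 39 genes between the DLBCL types in the first-class lines. PTTG1, which encodes securin, the inhibitor of separase, lay at 11.88, 11.23, 11.39, 11.53 and 11.21 in the first-class ABC DLBCL lines SU-DHL-8, OCI-Ly3, OCI-Ly10, MD903 and HBL-1. In the first-class GCB DLBCL lines it lay at 12.001, 12.63 and 13.31 (lowest, median, highest), above all 5. The difference of -1.12 had a 95% interval of -1.88 to -0.36 and did not pass over all genes (limma adjusted p = 0.21), and PTTG1 was named after its values were seen. With all 14 GCB DLBCL lines the groups overlapped, since the second-class lines DOHH-2, DB, Karpas422 and NU-DHL-1 lay at 10.35, 10.65, 11.36 and 11.59. In this comparison of ABC with GCB DLBCL, 36 of the 39 first-class differences were below 0, with a median of -0.40 beside 0.02 over all genes. UBE2C, the ubiquitin-conjugating enzyme of the anaphase-promoting complex, ran from 9.52 in HBL-2 to 13.92 in Jeko-1, both MCL. Retrocopies of PTTG1 exist, and how reads were shared with them was not given in the sources used here.

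BIRC5 (survivin) and CDCA8 (borealin) are subunits of the chromosomal passenger complex, which corrects faulty attachments. BIRC5 lay at 12.87, 12.75 and 13.41 in the BL lines Daudi, Raji and Ramos. In the first-class ABC DLBCL lines it lay at 12.64, 11.85, 11.02, 11.49 and 11.14, below all 3 BL lines. The difference of 1.38 had a 95% interval of 0.60 to 2.17 and did not pass over all genes (limma adjusted p = 0.096). Leaving out SU-DHL-8, the ABC DLBCL line nearest to BL with 12.64, necessarily widened the difference, to 1.64 (limma adjusted p = 0.021). BIRC5 did not pass when any other BL or ABC DLBCL line was left out. BIRC5 lay at 11.66, 12.50 and 13.22 in MCL and at 10.88, 12.06 and 13.29 in GCB DLBCL.

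At the kinetochore, CENPE, a motor that carries chromosomes to the spindle equator, lay at 11.97, 10.60 and 9.66 in the BL lines Daudi, Raji and Ramos. Raji and Ramos were below, and Daudi within, the 11.60 to 12.47 of the first-class GCB DLBCL lines (difference -1.18, 95% interval -2.01 to -0.36, limma adjusted p = 0.35). Daudi also separated from the other BL lines in MKI67 (14.42 in Daudi, 12.37 in Raji, 12.61 in Ramos), ASPM (12.73, 10.61 and 10.42) and CENPF (13.45, 11.52 and 11.19). Daudi was the BL line that the labels left unmarked. The 3 unmarked MCL lines HBL-2, MAVER-1 and UPN1 were likewise the highest MCL lines in MKI67, at 14.67, 14.50 and 14.44 with REC-1 next at 14.16, and HBL-2 and MAVER-1 were the highest in ASPM. With the 30 re-analysed lines only, MCL minus GCB DLBCL was -1.14 for MKI67, -1.26 for ASPM and -1.31 for CENPF, against -0.82, -0.96 and -0.78 with all lines, and CENPF then passed (limma adjusted p = 0.0076). The marking and the lines cannot be told apart. CENPF, which coats kinetochores in G2, had the largest SD of the 39 genes over 34 lines, 0.998, running from 10.35 in JVM2 to 14.63 in HBL-2, both MCL.

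Among the spindle genes, KIF20A, a kinesin of the central spindle, had the smallest p of the 39 genes for MCL against the other types in the first-class lines. It lay at 11.05, 11.80 and 12.50 in MCL, at 11.20, 11.59 and 10.53 in the 3 BL lines, and at 11.29, 11.80, 11.05, 10.47 and 10.72 in the 5 ABC DLBCL lines. In the 6 GCB DLBCL lines it lay at 11.37, 11.55 and 11.80 (lowest, median, highest). All groups overlapped, and the difference of 0.53 had a 95% interval of 0.18 to 0.89 (limma adjusted p = 0.073). Leaving out OCI-Ly3, the ABC DLBCL line highest in KIF20A with 11.80, necessarily widened the difference, to 0.59 (limma adjusted p = 0.040). KIF20A did not pass when any other BL or ABC DLBCL line was left out. TOP2A, the topoisomerase that untangles chromosomes, averaged 14.17 ± 0.44 in MCL, 14.18 ± 0.41 in BL, 14.16 ± 0.97 in ABC DLBCL and 14.07 ± 0.51 in GCB DLBCL. The second-class line NU-DUL-1 held the highest TOP2A (15.93) and the highest MKI67 (15.52) of all lines, and without it TOP2A averaged 13.80 ± 0.48 in ABC DLBCL. ANLN, the anillin of the cleavage furrow, was lowest in HBL-1 at 8.88.

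The lines differed in which of the 39 genes were high. SU-DHL-5 was above the mean of all lines in 37 of the 39 genes, UPN1 in 32, and HT and Toledo in 31 each. HBL-1 was above it in 2, SP-53 in 4 and MD903 in 5. JVM2 held the lowest value of all lines in 9 genes and the highest in 4. In JVM2 the deviations ran from -2.45 for CENPF to 1.86 for HMMR, a spindle and hyaluronan-binding protein. Jeko-1 was 1.97 above the mean in UBE2C and at a deviation of -1.15 in ESPL1, the gene of separase. DOHH-2, in the second class, held the lowest value in 7 genes, with CDC20, an activator of the anaphase-promoting complex, at a deviation of -2.19.

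**Figure D4:**
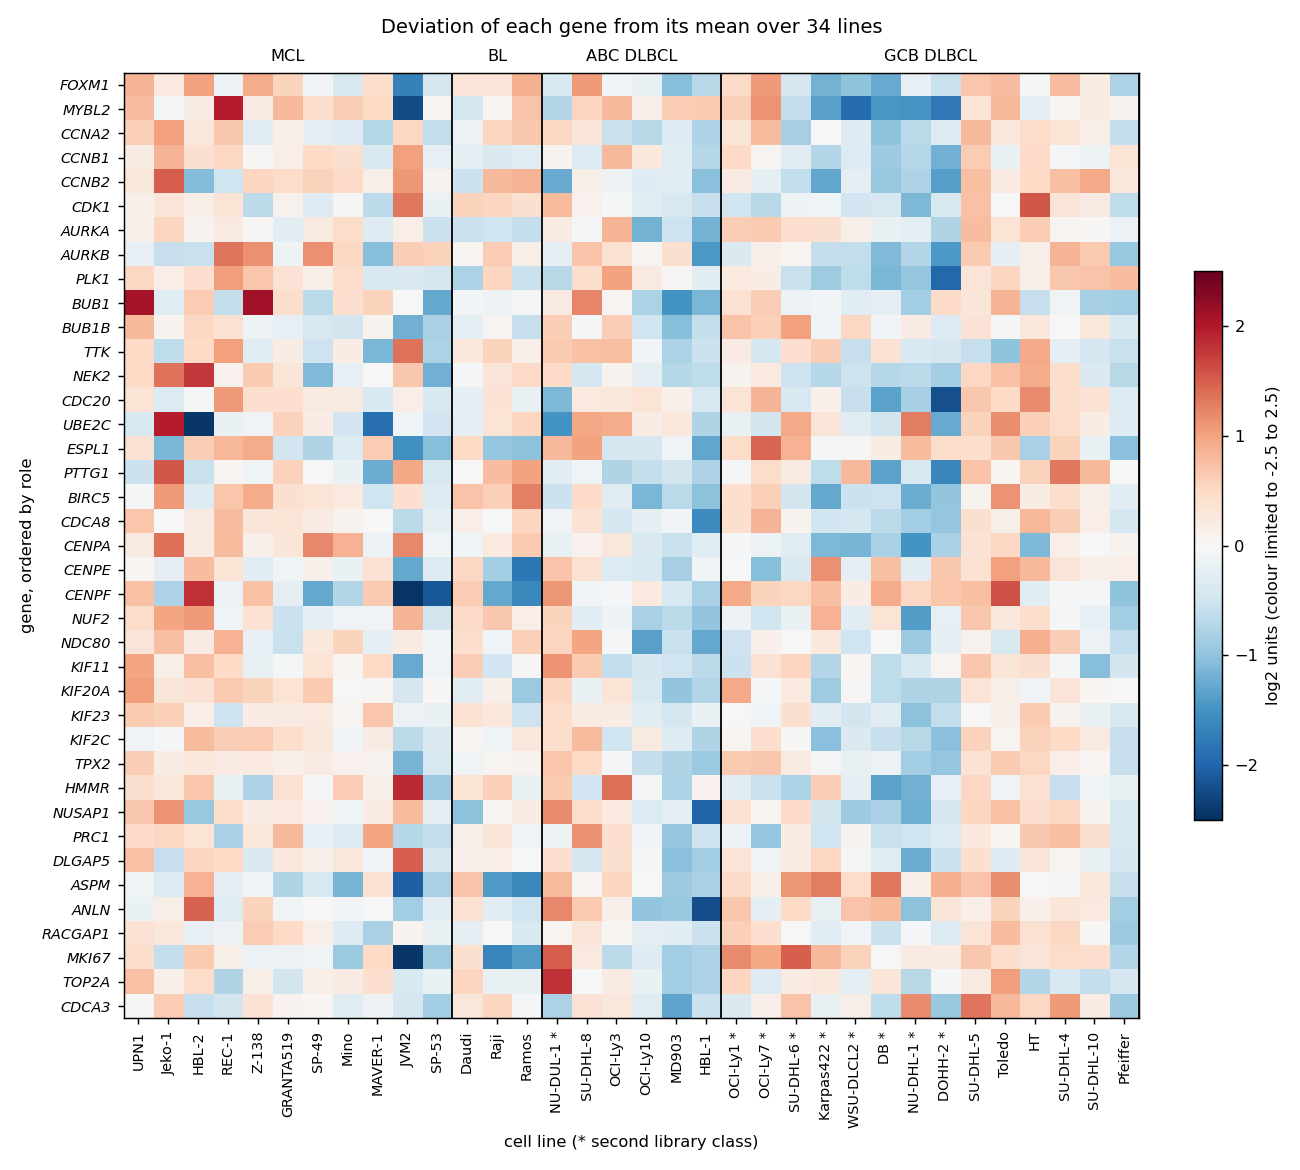
Deviation of each of the 39 genes (rows, by role) from its own mean over 34 lines, in log2 units, in each line (columns, by lymphoma type; an asterisk marks the second class). SU-DHL-5 is above the mean in 37 rows and HBL-1 in 2, and the JVM2 column holds both low values (CENPF at -2.45) and high ones (HMMR at 1.86).

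The 39 genes were correlated across lines only in part. Their median SD over 25 lines was 0.62, and that of the 4809 genes at or above the lowest mean of the 39 was 0.59. Over the 741 gene pairs the median Pearson r was 0.31 over 25 lines and 0.30 over 34, and 82.9% and 84.1% of pairs had an r above 0. These correlations run over libraries that differ in depth and lymphoma type, and the part of either was not tested. TPX2, which activates AURKA on spindle microtubules, followed the mean of the other 38 genes most closely (r = 0.86 in both sets of lines). ANLN (0.78) and CDCA8 (0.74) came next over 25 lines, and CDCA8 (0.79) and the kinesin KIF2C (0.74) over 34. MYBL2 (0.09), HMMR (0.12) and CENPA (0.22) followed it least over 25 lines, and UBE2C (0.13), ASPM (0.15) and CENPE (0.17) over 34.

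The spread differed between the genes. Over 34 lines CENPF (SD 0.998), MYBL2 (0.95) and UBE2C (0.90) varied most, and over 25 lines CENPF (1.05), BUB1 (0.93) and UBE2C (0.90). The kinesin KIF23 varied least in both, with an SD of 0.40 and 0.36, from 10.29 in NU-DHL-1 to 12.02 in MAVER-1. RACGAP1, which acts at the cleavage furrow, ran from 11.17 in Pfeiffer to 12.86 in Toledo (0.41 and 0.43), TPX2 had 0.51 over 34 lines, and CDC20 had 0.42 over 25. The genes not described singly were CCNA2, AURKB, BUB1B, NEK2, NUF2, NDC80, KIF11, NUSAP1 and CDCA3, whose SD over 34 lines lay between 0.53 in BUB1B and 0.73 in AURKB. Of these, NUSAP1 had the widest range, from 10.9997 in HBL-1 to 14.19 in NU-DUL-1, and AURKB, the kinase of the passenger complex, ran from 10.47 in DOHH-2 to 13.24 in REC-1.

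Some genes moved in blocks, which were picked out after the correlations were seen, so a high r within a block follows from this choice. What the blocks reflect was not tested, and transcript length and RNA quality were not examined. MKI67, ASPM, CENPF, CENPE and ESPL1 had a median r of 0.81 with each other over the 10 pairs in 25 lines, with 0.87 for both MKI67 with ASPM and ASPM with CENPF. HMMR, DLGAP5, TTK, CDK1 and CCNB1 had a median of 0.60, and CCNB2, PTTG1 and UBE2C had 0.59. Between the blocks led by MKI67 and HMMR the median r was -0.10, with 3 of 25 pairs above 0. The sign of this median changed with JVM2, but the relation stayed weak. Without this line the median was 0.14, the pairs ran from -0.14 to 0.36, and 21 of 25 were above 0. Between the blocks led by MKI67 and CCNB2 the median was -0.27 over 25 lines and -0.10 without JVM2 and HBL-2, where 2 of 15 pairs were above 0.

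**Figure D5:**
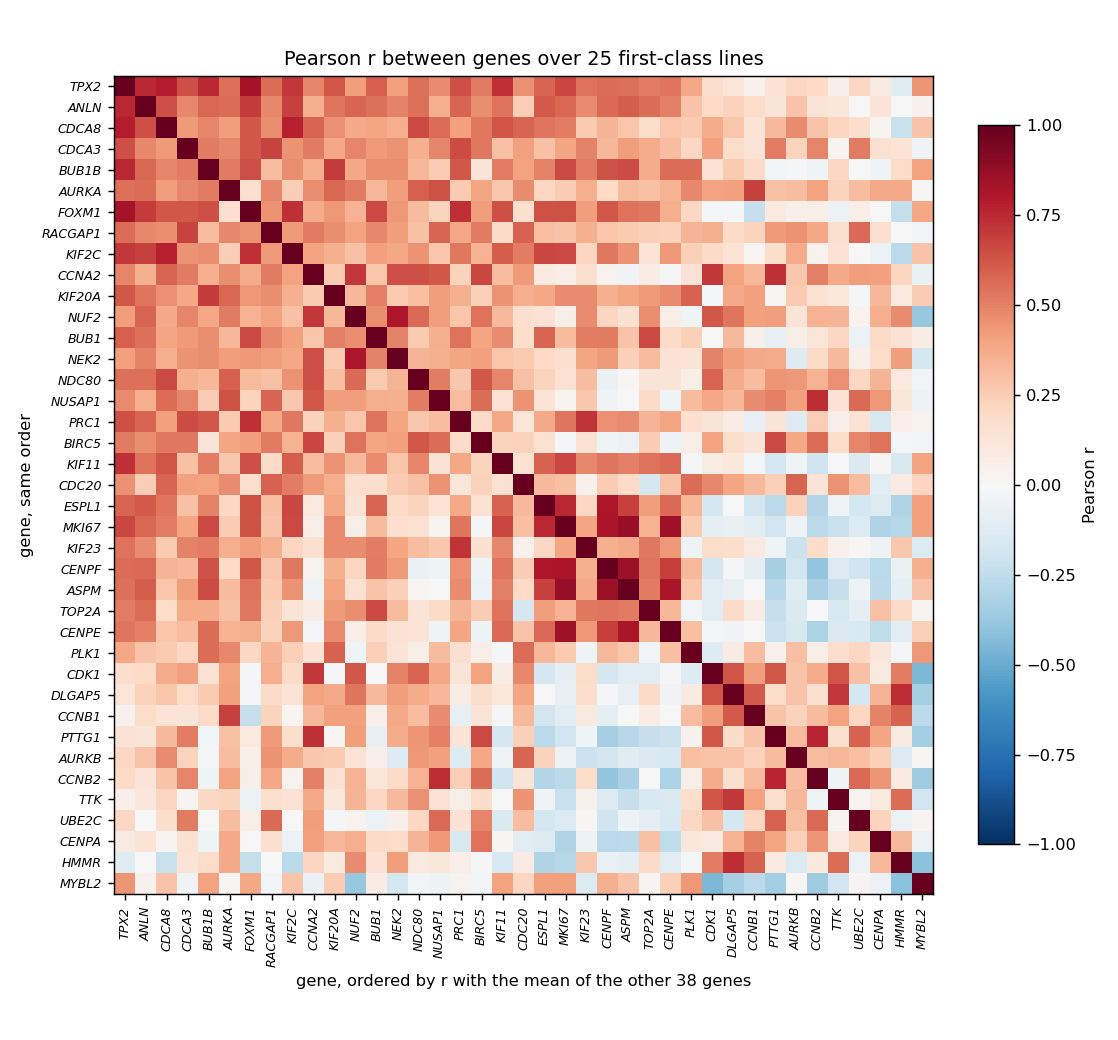
Pearson r between each pair of the 39 genes over the 25 first-class lines (colour), with genes ordered by their r with the mean of the other 38. TPX2 at the top has an r of 0.86 with that mean and MYBL2 at the end 0.09. MKI67, CENPF, ASPM, CENPE and ESPL1, picked out from these correlations, have a median r of 0.81 with each other.

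The 10 other genes most like the mean of the 39 over 25 lines were KIFC1 (r = 0.79), TROAP (0.79), MDC1 (0.76), FAM72D (0.75), KATNAL1 (0.74), NRF1 (0.71), CASC5 (0.71), CCNF (0.71), SKA3 (0.70) and SKP2 (0.68). Over 34 lines KIFC1, TROAP, FAM72D and SKA3 kept an r of 0.71, 0.70, 0.73 and 0.72, while KATNAL1 came to 0.37, CASC5 to 0.32 and SKP2 to 0.35. FAM72D is 1 of several near-identical copies, so its reads are uncertain.

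Around the 39 genes, 8 lists of 133 further cell cycle genes were examined. For MCL against the other types 5 of 133 passed in the first-class lines (3 higher and 2 lower, limma), a share of 3.76% beside 4.86% of all genes. CCND1, the cyclin D1 gene that the t(11;14) translocation places under immunoglobulin control in MCL, averaged 16.27 ± 1.43 in MCL, 5.79 ± 1.18 in BL, 6.40 ± 2.06 in ABC DLBCL and 5.68 ± 0.97 in GCB DLBCL. Its lowest MCL value, 12.59, was above the highest of any other line in the table's 34, 10.43. CDK6, a partner of D-type cyclins, averaged 7.001 ± 2.46 in MCL and between 11.64 and 11.85 in the other types, and CCND3 was lower in MCL by a limma difference of -2.09 ± 0.47 (adjusted p = 0.011). These 3 genes act in G1.

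CDKN1C, a CDK inhibitor, averaged 8.98 ± 1.64 in MCL, 4.90 ± 0.21 in BL, 4.89 ± 0.65 in ABC DLBCL and 5.47 ± 0.96 in GCB DLBCL, a limma difference of 3.89 ± 0.50 between MCL and the mean of the others. PIMREG, a mitotic regulator known earlier as FAM64A, lay between 8.79 and 11.02 in MCL. It lay between 4.55 and 4.90 in the first-class lines of the other types. The second-class GCB DLBCL lines averaged 5.13 and reached up to 8.39. PIMREG was matched by Ensembl ID, not by symbol, and how its reads were counted was not given in the sources used here. For MCL against GCB DLBCL over 34 lines, 21 of the 133 genes passed (limma), a share of 15.8% beside 23.7% of all genes. Of all genes, 11% were called higher in MCL there. Of the 20 DNA replication genes, 3 were called higher in MCL in the same comparison. They were the primase subunit gene PRIM1 (1.49 ± 0.26, adjusted p = 0.0003), TYMS (1.96 ± 0.47, adjusted p = 0.0047) and PCNA (0.95 ± 0.26, adjusted p = 0.011). PRIM1 averaged 11.34 ± 0.71 in MCL and 10.29 ± 0.41 in first-class GCB DLBCL lines, where its difference of 1.05 ± 0.33 had a limma adjusted p of 0.075. TYMS averaged 13.29 ± 0.36 in MCL, and 10.02 ± 0.53 in second-class and 13.10 ± 0.59 in first-class GCB DLBCL lines. Between the GCB DLBCL classes 21 of 131 genes of the lists passed (16%, beside 17.1% of all genes), 5 higher and 16 lower in the second class, among them CDK4 (-2.03 ± 0.40) and the subunits ANAPC11 (-2.10 ± 0.31) and CDC26 (-2.09 ± 0.34) of the anaphase-promoting complex.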

How the data were processed

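The authors deposited one table of variance-stabilised log2 values per gene, with 34 columns of 1 library each. Per the submitters' processing notes, genome build GRCh38, DESeq2 1.26.0, STAR 2.5.3a and R 3.6.1 are named, with no role given for each. The read counter, the annotation and strand handling were not given in the sources used here. Per the labels' protocols, libraries were made at several times. Inverting the transform from its lowest value, 4.55, gave whole reads for 100% of values (tolerance 0.05), and depth was summed from these. Differences near 4.55 are compressed.

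The low-value filter asked for 3 or more lines over 1 log2 unit above the table's minimum, and left 22167 genes in 34 lines and 18432 in the 25 lines with ZNF593 above 4.56. One mean per lymphoma type was fitted with limma 3.58.1 (trend) in R 4.3.3, with 7 contrasts, and p-values were adjusted by Benjamini-Hochberg over all genes, with a threshold of 0.05. MCL was set against the unweighted mean of the other 3 types. Library class within the 14 GCB DLBCL lines was fitted apart, on 19736 genes. The lines are the replicates, so p-values measure the spread between lines. Correlations were computed in Python 3.11.15 and have no p.

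Genes named with values were the markers and regulators MKI67, TOP2A, FOXM1, MYBL2, CCNB1, CDK1, AURKA and PLK1, those past the threshold, and those at the ends of the orders of SD and correlation. Others were named after their values were seen. The 39 genes, the lists and the library classes were chosen with earlier results of these data known. Of the marker genes, FCGR3A and CDH5 were not matched by name and were not used here. The alternatives tried were no filter, median-centring, quantile normalization, re-analysed lines only, library class as a covariate, and leaving out each BL or ABC DLBCL line.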

Additional observations from a re-analysis of the deposited data

Results flagged for a closer look

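Within the 6 first-class GCB DLBCL lines, 3 values stood apart from the other 5 by more than the 95% critical gap of Dixon's test. CENPA was 9.01 in HT, while the others lay between 10.14 and 10.65. ANLN was 10.24 in Pfeiffer, with the others between 11.22 and 11.65. MKI67 was 13.275 in Pfeiffer, with the others between 14.33 and 14.68. Chance flags about 1 in 20 groups, and 120 groups were examined.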

How the results depend on the processing

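For MCL against GCB DLBCL over 34 lines, 3 of the 39 genes passed. With the re-analysed lines only there were 5 (CENPA and AURKB higher, ASPM, MKI67 and CENPF lower). There were 2 without the filter (MKI67 at a limma adjusted p of 0.062) and 0 with library class as a covariate. Over the same alternatives the calls among all genes ran from 522 to 5902, with 5245 in the main fit. These counts of the 39 are therefore not read as a result about these genes. For BL against GCB DLBCL the re-analysed lines gave 1 (ASPM, -2.04, limma adjusted p = 0.049), with Raji and Ramos as the only BL lines. Daudi, left out there, had an ASPM value of 12.73, inside the GCB DLBCL range of 11.45 to 13.34. Leaving out single lines gave 0 to 1 genes in the first-class fits of MCL against the others (1 without OCI-Ly3) and of BL against ABC DLBCL (1 without SU-DHL-8). The difference between MCL and BL in the mean of the 39 genes was 0.08, and -0.34 with libraries centred on their medians, in both sets of lines. TYMS turned to -0.031 (adjusted p = 0.97) for MCL against GCB DLBCL in the first-class lines when centred. Quantile normalization added MKI67 (0.92, adjusted p = 0.042) between the GCB DLBCL classes. Over 59 results of single genes, 344 of 376 alternatives kept direction and side of the threshold, and 25 lost and 6 gained it. The causes were not tested.

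Counts of all genes moved more. For MCL against the others they were 989 (552 to 1624 over the alternatives) in 34 lines and 896 (398 to 1510) in 25, and for MCL against BL 259 (40 to 328) and 401 (55 to 590). Against ABC DLBCL they were 153 (139 to 184) and 150 (81 to 282), and against GCB DLBCL 5245 (522 to 5902) and 628 (575 to 972). For BL against ABC DLBCL they were 26 (7 to 49) and 121 (40 to 294), for BL against GCB DLBCL 34 (11 to 75) and 29 (11 to 45), and for ABC against GCB DLBCL 161 (26 to 230) and 58 (2 to 197). Centring on medians changed 798 higher and 191 lower calls of MCL against the others to 527 and 1097, and 2436 and 2809 against GCB DLBCL to 1473 and 4429. No paired analysis was possible because replicate numbers here only name lines. Depth limits the second class, where a value rests on as few as 26 reads.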
